A study of Mus musculus with 2 samples.

Results

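Lubricin and 6 other small or matrix-bound proteins that chondrocytes secrete were followed in cultured mouse chondrocytes that had undergone a cyclic stretch, with RNA from before it and from 24 h later. The members are Prg4, Cilp, Cilp2, Ucma, Cytl1, Clec3a and Scrg1, named by hand, and each was found through the RefSeq transcript that the array lists for its probe. All 7 genes had a probe, of 20660 genes named in this way. The cells were primary chondrocytes of 6-day-old C57BL/6J mice, cultured for 48 h in silicone chambers coated with fibronectin. Loading was a uniaxial stretch of 10% elongation at 0.5 Hz for 30 min. RNA taken before loading was hybridised to 1 array and RNA taken 24 h after loading to the other. Each time point thus rests on 1 array, which limits the precision: every difference below is without a replicate check, and no test or p-value is given. Neither array held RNA of cells kept for 24 h without loading, so on these arrays loading and a further 24 h in culture cannot be told apart.

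Articular cartilage is a matrix of collagen and proteoglycan with smaller secreted proteins set in it or on it, and many of these mark a zone of the tissue. Lubricin, the product of Prg4, is a mucin-like glycoprotein that coats the joint surface as a boundary lubricant and is made by superficial zone chondrocytes and by synovial lining cells. The other members lie deeper in the matrix or act as small secreted factors, and they are widely used as markers of chondrocyte identity.

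Values are the scanner software's processed intensity of a spot, in arbitrary units after background subtraction. Log2 ratios give the value at 24 h minus the value before loading, with each array set to its own 75th percentile of intensity, which lay at 466.37 before loading and 466.15 at 24 h. A gene is called detected when its brightest probe was well above background, by the software's flag, on both arrays. Of the 7 genes, 6 were detected, and Cilp was well above background only at 24 h. Of these 6, 0 were more than 2-fold higher at 24 h, beside 0.668% of all 14231 detected genes, and 0 were more than 2-fold lower, beside 1.83%. The log2 ratio was larger in size than its within-array error, explained below, in 4 of the 6 and in 42.8% of all detected genes. Cilp2, 1 of these 4, came within its error under all 5 other scalings. The higher genes made up 26.8% of all genes past 2-fold, or 38.8% with the median of each array as its scale and 37.0% with the spike-in controls. The log2 ratios of the 6 ran from -0.47 to 0.22, with 4 below 0 and 2 above, and their median was -0.18 against -0.01 over all detected genes. Across all detected genes, 5% had a log2 ratio below -0.63 and 5% one above 0.51.

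Prg4, which encodes lubricin, measured 1411 before loading and 1016 at 24 h in intensity. The signal at 24 h was thus 72.1% of that before loading, or 1.39-fold lower, and the log2 ratio was -0.47 (within-array error 0.20). This error joins the software's own errors for the before and after spots on the log2 scale and says nothing of the difference between cultures. For Prg4 and the 4 other bright members it is close to a fixed 10% of the signal on each array, so it is the software's model of a spot and not a measured spread. A measured value of spot precision came from 264 probes with at least 8 spots, in which the log2 ratios of a probe's spots had a median SD of 0.09. Prg4 was the only detected member whose log2 ratio exceeded 2 within-array errors, and it did so under 3 of 5 other scalings, but not with median (-0.37) or spike-in scaling (-0.38). Its median spot pixel lay 1293 above local background before loading and 880.5 above it at 24 h. None of the 29 other spots within 100 µm had changed more than 2-fold, and their median log2 ratio was -0.03. Prg4 has a second probe for the same transcript, with intensities of 7.91 and 4.51, which on neither array was well above background and gives no fold. Among detected genes, 8.4% had a lower log2 ratio than Prg4, and 85.6% had a smaller change in size. Prg4 ranked 13035 of 14231 from the highest, and 1957 genes lay within its error. The nearest of the listed genes was Spp1 (-0.48), which encodes osteopontin.

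**Figure D1:**
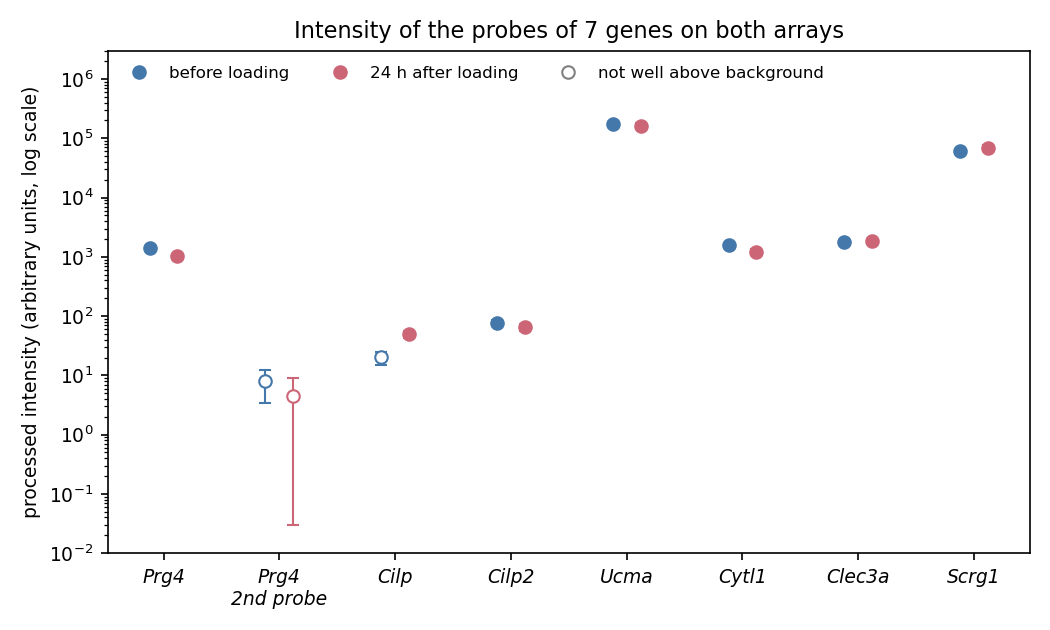
Processed intensity, in arbitrary units on a log axis, of each probe of the 7 genes before loading (blue) and 24 h after loading (red), with bars for the scanner software's error where these are larger than the symbols and open symbols for spots not well above background. Intensities of different probes are not comparable with each other; among the probes that represent a gene the pairs lie close together except for Cilp, whose intensity was 20.2 before loading, not well above background, and 49.4 at 24 h.

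Cilp, which encodes the cartilage intermediate layer protein, a matrix protein that binds TGF-β1, went from an intensity of 20.2 to 49.4. The value before loading was not well above background, so only a bound can be given, which was at least 2.44-fold higher at 24 h on the processed intensities. Such a bound sets the brighter value against the higher of the dim spot's own value and the lowest signal well above background on that array, which was 17.3, and here the spot's own value was the higher. It takes no account of the error of the spots or of the background correction, so the change can be smaller, and the log2 ratio less 2 within-array errors was 0.47. The median spot pixel of Cilp lay 23 above local background before loading and 39 above it at 24 h. With normexp correction, the log2 ratio of Cilp was 0.34, against 1.29 from the processed intensities. Normexp as run here models the background from all spots and then adds a constant offset of 50 to the signals of both arrays. This offset is larger than the Cilp pixel values of 23 and 39, and its share in the lower ratio was not tested. Cilp was 1 of 234 genes that were well above background only at 24 h, of which 41.5% had a measured ratio above 2-fold, and 517 genes were well above background only before loading. Its paralogue Cilp2, a matrix protein of related structure, was detected on both arrays but dim, with intensities of 77.2 and 64.5. The log2 ratio of Cilp2 was -0.26 (within-array error 0.25), or 1.20-fold lower, and it was negative under all 5 other scalings, from -0.26 to -0.16 over every setting run.

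Ucma encodes a small secreted protein of cartilage that is rich in γ-carboxyglutamate and is also called Gla-rich protein. The intensity of its probe was 174144 before loading and 162203 at 24 h, and neither spot was saturated. The log2 ratio of -0.10 was smaller than the within-array error of 0.20, and quantile normalization turned its sign, to 0.06. As many as 7378 detected genes lay within the error of Ucma, and the nearest listed gene was Foxa2 (-0.10).

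Scrg1, a small secreted protein known as stimulator of chondrogenesis 1, had intensities of 60014 and 69718. It was 1.16-fold higher at 24 h, with a log2 ratio of 0.22 (within-array error 0.20), and it was the highest of the 6 detected members. The ratio was above 0 under every setting run and reached 0.35 with quantile normalization. Within the error of Scrg1 lay 5399 detected genes, and the nearest listed gene was Sox9 (0.22), the transcription factor that sets chondrocyte fate.

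Cytl1, a secreted cytokine-like protein expressed by chondrocytes, gave intensities of 1570 before loading and 1223 at 24 h. Its signal at 24 h was 78.0% of that before loading, which is a log2 ratio of -0.36 (within-array error 0.20). It stayed below 0 under every setting run, from -0.37 to -0.26. Plaur (-0.36), the urokinase receptor, was the listed gene nearest to Cytl1, and 3316 detected genes lay within the error of Cytl1.

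Clec3a, a cartilage-derived C-type lectin of the tetranectin family, had nearly equal intensities of 1754 and 1820. Its log2 ratio of 0.05 was smaller than the within-array error of 0.20, and it was above 0 under every setting run. Of the 30 spots around the Clec3a spot within 100 µm, 2 lay past 2-fold upward and 2 downward.

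**Figure D2:**
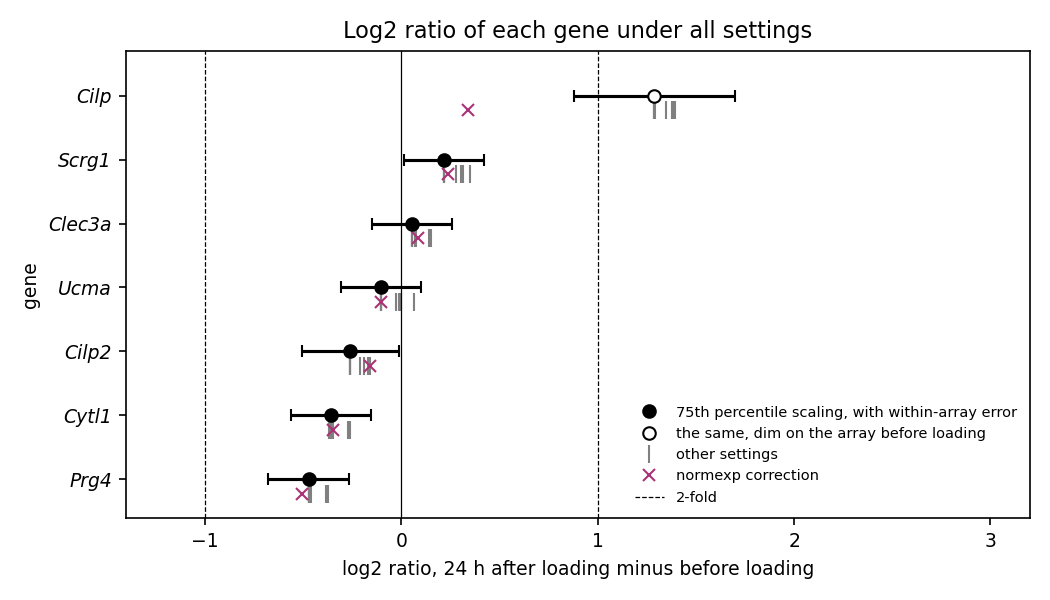
Log2 ratio of each gene, 24 h after minus before loading, on the x axis, with the within-array error as bars. Grey ticks and purple crosses give the other settings and normexp correction, and dashed lines mark 2-fold; the crosses lie near the points except for Cilp, at 0.34 against 1.29.

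The members were set beside the main matrix genes of the same cells. Sox9 had intensities of 9965 and 11610.3, a log2 ratio of 0.22. Col2a1, the main collagen of cartilage, had a log2 ratio of -0.07, which was above 0 under 4 of 5 other scalings, and Acan, the aggrecan core protein, had 0.34. Prg4, Cytl1, Cilp2 and Ucma had lower log2 ratios than all 3 of these genes under 75th percentile scaling. The gaps of Cilp2 and Ucma to Col2a1 were smaller than their within-array errors. Grem1, the BMP antagonist that the study followed, had intensities of 2850 and 8125 and was 2.85-fold higher. Of 9 cartilage collagens, aggrecan and link protein genes, all 9 were detected and 0 passed 2-fold, with a median of 0.08. The highest of them was Col27a1 (0.50) and the lowest Col11a1 (-0.82). Of 23 other noncollagenous matrix proteins, 21 were detected, and 2 were past 2-fold upward and 0 downward, with a median of 0.11. The higher ones were Frzb (1.11), a secreted Wnt antagonist, and Ogn (1.01), a small leucine-rich proteoglycan. Neither passed 2-fold by more than 2 within-array errors. The lowest was Chad (-0.86), which encodes chondroadherin.

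Lubricin marks the superficial zone, and 13 of 14 genes listed for that zone and the joint surface had a probe and were detected. Their median log2 ratio was -0.08, and it turned above 0 under 2 of 5 other scalings. Prg4 lay below that median under 75th percentile scaling. Dpt, which encodes the matrix protein dermatopontin, was highest, with intensities of 59.2 and 253.0 and a log2 ratio of 2.10. Col22a1, a collagen of tissue junctions, was also more than 2-fold higher (1.27), and Abi3bp (0.99) was past 2-fold under 4 of 5 other scalings. Tnc, which encodes tenascin-C, was lowest (-0.87, and -0.57 with another probe). With normexp correction Tnc moved to -0.50 and Col22a1 to 1.04. All 20 known regulators of lubricin transcription were detected and 0 passed 2-fold, with 10 above 0 and 10 below and a median of 0.01. As means over probes their median was below 0 (-0.05). Creb5, a transcription factor that drives Prg4 in superficial chondrocytes, had intensities of 80298 and 83095, a log2 ratio of 0.05. Tgfb2 was the highest of these regulators (0.67) and Bmp7 the lowest (-0.70), and both encode growth factors of the TGF-β family. Of 22 genes listed for lubricin partners, receptors and general matrix turnover, 19 were detected, 0 passed 2-fold, and 13 lay above 0 with a median of 0.19. By the brightest probes Ctss, which encodes the protease cathepsin S, was highest (0.63), and Elane, neutrophil elastase, was lowest (-0.23). The probes of 2 genes differed: Adamts5, an aggrecanase, had 0.62 with its brightest probe and 1.31 with another, and Cd44, a hyaluronan receptor, -0.07 and -1.05. As means over probes, Adamts5 (0.97) was highest and Cd44 (-0.56) lowest.

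The CILP proteins are linked to TGF-β1, IGF-1 and pyrophosphate metabolism, and all 12 genes listed for these were detected with 0 past 2-fold. Tgfb1 (0.44) was highest and Alpl (-0.89), the tissue-nonspecific alkaline phosphatase, lowest. The median of -0.05 turned above 0 under 2 of 5 other scalings, and also as means over probes (0.03). Ucma belongs with the vitamin K dependent Gla proteins, and of 19 listed genes of these proteins and their enzymes 16 were detected, with 0 past 2-fold and a median of -0.05 that changed sign under 3 of 5 scalings. In that list Prrg1 was highest (0.67) and Prrg4 lowest (-0.62) on the processed intensities, both transmembrane Gla proteins. Prrg4 moved to -0.22 with normexp correction. Clec3a belongs with tetranectin, and of 13 genes listed for this family, related lectins and the plasminogen system 8 were detected, 0 passed 2-fold and the median was -0.003, which changed sign under 4 of 5 scalings. Plat, the tissue plasminogen activator, was highest there on the processed intensities (0.67), and moved to 0.38 with normexp correction. All 16 chondrocyte transcription factors were detected with 0 past 2-fold, from Zbtb20 (0.46) to Runx3 (-0.43), or to Sox5 (-0.40) as means over probes, with a median of -0.03 that changed sign under 3 of 5 scalings.

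**Figure D3:**
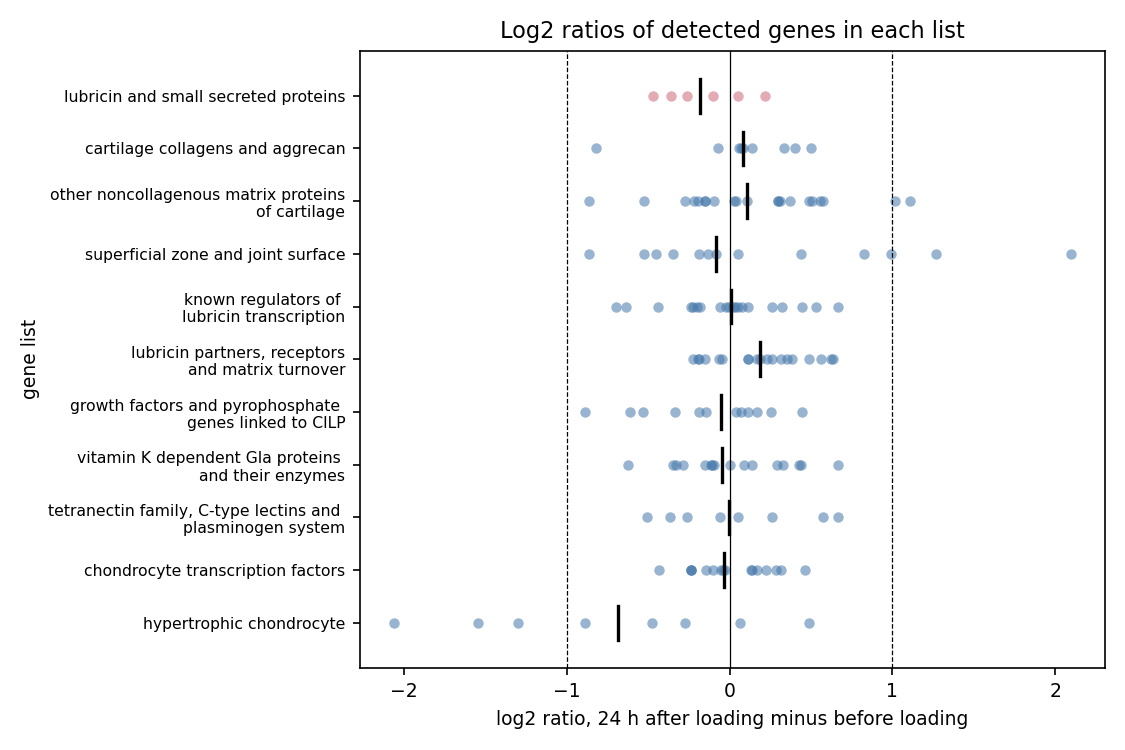
Log2 ratio, 24 h after minus before loading, of each detected gene (points) in the 6 detected members (red) and in 10 lists of related genes (blue), with the median of each as a black line and dashed lines at 2-fold. The members lie between -0.47 and 0.22, and the hypertrophic list lies lowest, with a median of -0.68.

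The hypertrophic list had the lowest median of the 10 lists. Of 10 genes listed, 8 were detected, 3 were more than 2-fold lower and 0 more than 2-fold higher, with a median of -0.68. Col10a1, the collagen of hypertrophic cartilage, had intensities of 18909.7 and 6485 and a log2 ratio of -1.54. Ibsp, which encodes bone sialoprotein, had -2.06 and Ihh, the Indian hedgehog ligand, -1.30, while Mmp13, a collagenase, was highest with 0.49.

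Since Prg4 is also made by synovial cells, markers of other cells are given beside it. Their part in the values of the members was not tested. A summed intensity adds probes that are not comparable with each other, is led by the brightest of them and serves only to set the arrays side by side. Of 10 chondrocyte markers, all 10 were detected with 0 past 2-fold, and Matn1 (0.56) and Matn3 (-0.22), which encode matrilins, were highest and lowest. Of 10 synovial and joint fibroblast markers, 9 were detected, 7 of them above 0, and 2, Dpt and Htra4 (1.65), were more than 2-fold higher. Their summed intensity was 4872 before loading and 6701 at 24 h, with Pdpn the brightest (0.48, and 1.17 with another probe), and on neither array was Clic5, a marker of lining cells, well above background. Of 8 markers of dedifferentiated cells or fibroblasts, 8 were detected, 6 of them below 0, and S100a4 (-1.44) was more than 2-fold lower, with a summed intensity of 303268 and 245252 and Vim the brightest. The other lists held fewer detected markers. Adipocyte markers had 5 of 7 detected, 4 above 0 and 1 below, and 3 more than 2-fold higher, namely Adipoq (2.29), Cidea (1.53) and Plin1 (1.01), with a summed intensity of 2151 and 3831 and Fabp4 the brightest (0.95, past 2-fold under 2 of 5 other scalings). Tenocyte markers had 5 of 6 detected with sums of 29926 and 40606, with Fmod the brightest, and 0 past 2-fold. Osteoblast markers had 4 of 7 detected, 3 of them below 0 with a median of -0.49 and Ibsp more than 2-fold lower, while Bglap2 (0.44), the brightest, led the sums of 1299 and 1369. Macrophage markers had 7 of 8 detected, 4 above 0 and 3 below. Ptprc (1.14) was more than 2-fold higher but dim, with intensities of 20.9 and 46.1. Itgam, the brightest at 25496 and 24759, led the sums of 29741 and 28818. Skeletal muscle markers had 5 of 8 detected, 3 of them below 0 with a median of -0.13, with Myh8 (1.15) more than 2-fold higher, Tnnt3 lowest (-0.78, and past 2-fold lower with another probe) and sums of 1966 and 1731, with Acta1 the brightest. With normexp correction Plin1 (0.62), Ptprc (0.40) and Myh8 (0.63) came within 2-fold, and Adipoq (1.28), Dpt (1.34), Htra4 (1.14) and Ibsp (-1.36) moved toward 0 but stayed past it. Endothelial and erythroid markers had 2 of 6 detected each and 0 past 2-fold, and Cdh5 and Hbb-bs, defining markers of these, were well above background on neither array.

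Promoter sequences of Ucma, Cytl1, Cilp and Cilp2 were in the RefSeq table of assembly GRCm38.p6, which gives 250 bases before and 50 after the start of a gene. Prg4, Clec3a and Scrg1 were without an entry. The windows were searched on both strands for TATAAA, for the SOX letters ACAAAG and ACAATG, for the cAMP element TGACGTCA and for the Smad letters CAGACA. These are held by 13.6%, 28.6%, 1.8% and 21.0% of all 32851 promoters. A single match was found, that of CAGACA on the reverse strand of the Ucma window, from position 266 to 271. This window, at chr2:4975872-4976171 on the plus strand with 56.0% G and C, is shown because it is the only one with a match, and the capitals mark the match.
Ucma: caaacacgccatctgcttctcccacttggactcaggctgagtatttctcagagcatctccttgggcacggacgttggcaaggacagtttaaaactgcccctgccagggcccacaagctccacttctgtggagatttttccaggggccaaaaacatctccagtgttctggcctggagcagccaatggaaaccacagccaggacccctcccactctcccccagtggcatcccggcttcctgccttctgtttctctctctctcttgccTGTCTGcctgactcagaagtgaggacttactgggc
The match is a description of the letters and not of a bound site.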

How the data were processed

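The authors deposited the processed intensity of each spot, its software error and its flags, as Agilent Feature Extraction 10.10.1.1 gave them after background subtraction; a value table of the authors holds the same intensities rounded, with differences of at most 0.497%. The scanner model in the file headers differs from that in the methods. Control spots and outlier spots on either array were left out, spots of a probe were averaged, log2 intensities were set to the 75th percentile over 55678 probes, and 27235 probes were named through RefSeq accessions without versions. The brightest probe represents a gene, and a probe with several spots is well above background when most of them are. The members and lists were chosen with earlier results of these data known. Genes named from a list are those past 2-fold, the highest and the lowest; the lowest of 1 list is not reported here. Calls were tested on simulated data. R 4.3.3 with limma 3.58.1 served for normexp (offset 50, on the median spot signal, since no mean is given), quantile and loess normalization. Python 3.11.15, numpy 2.4.6 and pandas 2.3.3 served for all other steps.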

Additional observations from a re-analysis of the deposited data

How the results depend on the processing

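No paired analysis was possible because each time point has a single array, and no array could be left out. The 6 detected members stayed within 2-fold under all alternatives run. Cilp counted as 1 member more than 2-fold higher without the filter on dim probes, or with well above background on at least 1 array asked for, since these let it in. Its log2 ratio moved from 1.29 to 0.34 with normexp correction. The sign of Ucma turned with quantile normalization (0.06). The median of the members lay between -0.18 and -0.06. Over all detected genes, 95 were more than 2-fold higher and 260 lower; normexp gave 38 and 117, no filter on dim probes 492 and 983, at least 1 array 192 and 507, and 2-fold passed by more than 2 within-array errors 23 and 95. With that last limit, 0 noncollagenous matrix genes and 1 superficial zone gene were more than 2-fold higher, 2 hypertrophic genes were lower, as Ihh dropped out, and of the markers Plin1, Ptprc and Myh8 dropped out. The superficial zone count was 3 and not 2 under median, loess, normexp and spike-in scaling. Without the filter on dim probes, 1 Gla protein gene was lower, 1 gene of the tetranectin and plasminogen list was higher, and the hypertrophic median was -0.38. The changes without the filter, with at least 1 array and with the stricter limit follow from the genes let in or from that limit. The superficial zone count of 3 includes Abi3bp, which passed 2-fold under those scalings. For normexp, which includes the offset of 50, the cause of the changes was not tested. Of the 49 other genes named, 12 shifted beyond their within-array error under normexp and 0 under any other alternative. Spike-in scaling was chosen after seeing the data. Signal over background limits Cilp and Cilp2.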
